A study of Mus musculus with 7 samples.

Results

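The genes described here are those of fatty acid oxidation and ketogenesis. A list of 42 genes was named, from the activation of fatty acids through the carnitine shuttle, mitochondrial and peroxisomal oxidation and ketone body formation to genes that control these steps. A gene counted as measured when a probe set of the array carried its symbol and no other, and the brightest such probe set stood for the gene. Of the 42 genes, 39 were measured, among 19938 genes in all. *Acsl1*, *Acsl3* and *Cpt1b* were not analysed here: no probe set carried the symbol of *Acsl1* alone, and the probe sets of the other 2 were shared with another gene.

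Primary hepatocytes of male C57BL/6J mice were transfected with 1 µg of miR-709 mimic (4 arrays, replicates A to D) or of the control mimic Cel-239b, a miRNA of worms (3 arrays, replicates B to D), and their total RNA was hybridised to Affymetrix Mouse Gene 1.0 ST arrays 24 h later. The cells of both groups were set free with collagenase, separated from other liver cells on Percoll, and cultured with serum, insulin and dexamethasone. Neither the methods nor the labels say whether the replicates came from separate mice or isolations, so each p-value rests only on the spread among these arrays, which may be technical.

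Fatty acids are activated to acyl-CoA, pass the mitochondrial membranes as carnitine esters and are shortened there by repeated rounds of dehydrogenation, hydration, dehydrogenation and thiolysis. Peroxisomes shorten very long, branched and dicarboxylic fatty acids by a parallel set of enzymes. In fasting, the liver turns much of the acetyl-CoA into ketone bodies, and the nuclear receptor PPAR alpha raises many genes of all these steps.

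Values are log2 signals after RMA, so a difference of 1 is a doubling, and a level is comparable between arrays but not between genes. The signals of all probe sets ran from 1.92 to 14.08, with array medians of 5.04 to 5.07. The standard error (SE) of a log2 fold change had a median of 0.08. A gene is called higher or lower with miR-709 when its adjusted p from limma, by Benjamini-Hochberg over all 19938 genes, is under 0.05.

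With miR-709, 4 of the 39 genes were higher and none was lower, and all 4 lie outside the core spiral of mitochondrial oxidation. They were *Ehhadh* and *Pex11a* of the peroxisome, the acyl-CoA thioesterase *Acot2* and the kinase *Pdk4*. The 4 genes are 10.3% of the 39, where 1.81% of all genes were called higher and 1.47% were called lower by limma. The share over all genes includes many dim genes, so it is not matched to the 39. With genes under a mean signal of 6 left out, 555 of 8638 genes were higher, beside 4 of the 36 that remained of the 39. With a limit of 5 it was 485 of 10970 genes, beside 4 of the 39. *Acot1*, *Bdh1* and *Ppargc1a* lay under the limit of 6, so that they were not called rests on dim signals. At an unadjusted p under 0.05, 9 of the 39 were higher and 1 was lower, beside 9.15% and 5.83% of all genes. The 4 miR-709 arrays all lay above the 3 Cel-239b arrays in 8 of the 39 (7.44% of all genes) and all lay below them in 0 (4.91% of all genes). The methods' t-test, adjusted in the same way, called 3 of the 39 higher and 0 lower. Over the 39 genes the median log2 fold change was 0.07, with a range of -0.24 to 1.00, and it was above 0 in 29 (74.4%), whereas over all genes the median was 0.01 and 54.6% were above 0.

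**Figure D1:**
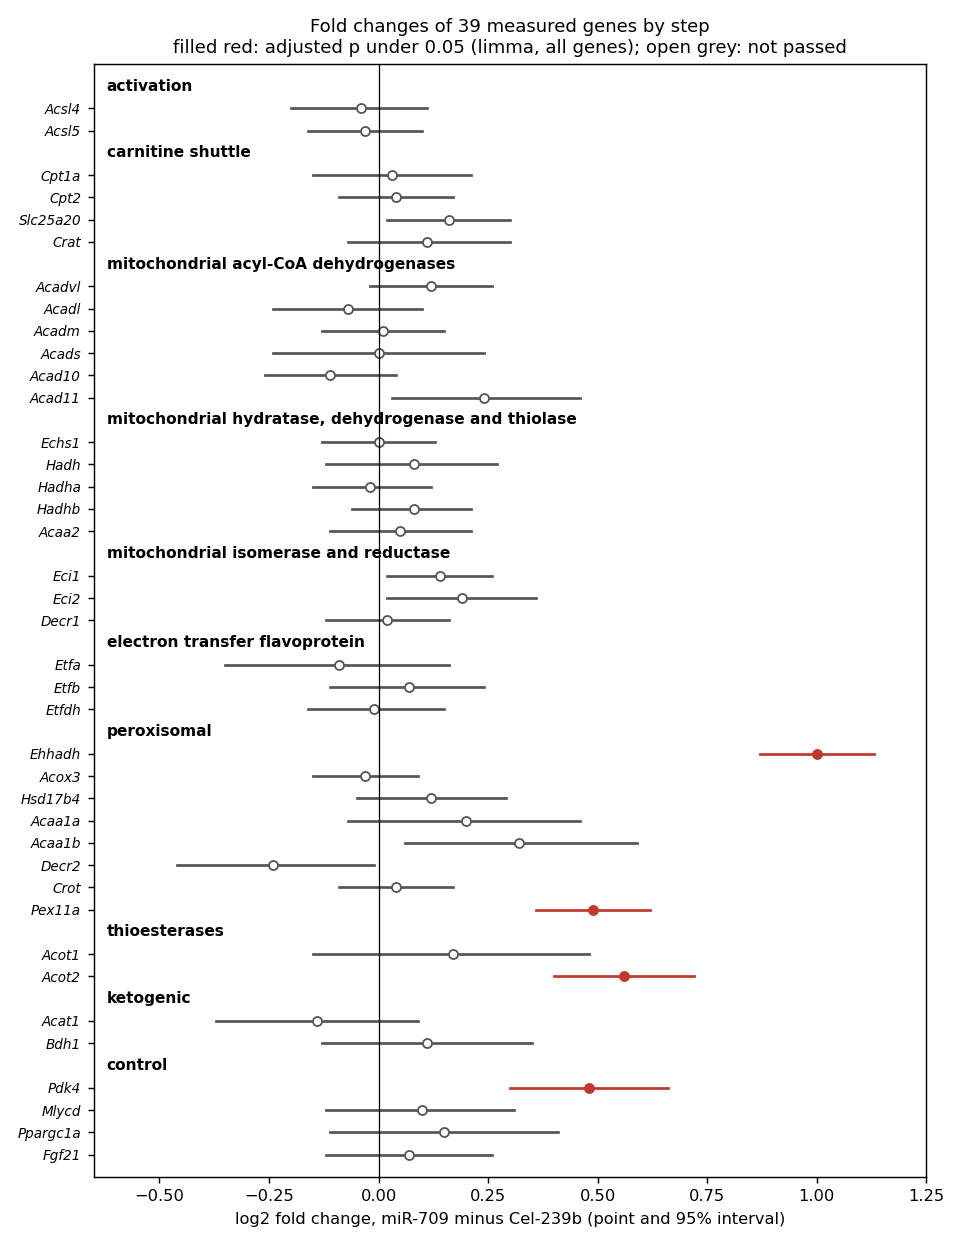
Log2 fold change, miR-709 minus Cel-239b, of the 39 measured genes in blocks by step, with the 95% interval as a line; filled red points have an adjusted p from limma under 0.05 and open points do not. *Ehhadh*, *Pex11a*, *Acot2* and *Pdk4* are filled, and the 35 open points lie between -0.24 and 0.32.

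*Ehhadh* encodes the L-specific bifunctional enzyme of the peroxisome, which carries out hydration and the following dehydrogenation. Its log2 signal was 8.10, 8.16, 8.03 and 8.08 on miR-709 replicates A to D, and 7.04, 7.16 and 7.08 on Cel-239b replicates B to D. All miR-709 arrays lay far above all Cel-239b arrays, with little spread within either group (8.09 ± 0.05, SD, n = 4, with miR-709 and 7.09 ± 0.06, SD, n = 3, with Cel-239b). The log2 fold change was 1.00 (SE 0.06, 95% interval 0.87 to 1.13), a doubling of the signal, with adjusted p = 6.7e-05 from limma. It was called in all 20 alternatives, with a log2 fold change of 0.97 to 1.04. In bulk RNA, a change in the number of cells of a type and a change in RNA per cell cannot be told apart, here and for the genes that follow.

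*Pex11a* encodes a membrane protein of peroxisome division, and in rodents it is a PPAR alpha target. Its log2 signal was 8.37, 8.38, 8.26 and 8.34 on miR-709 A to D, and 7.79, 7.86 and 7.89 on Cel-239b B to D. The groups did not overlap, and the lowest miR-709 array, C, was still above the highest Cel-239b array, D. The log2 fold change was 0.49 (SE 0.06, 95% interval 0.36 to 0.62), or 1.41-fold, with adjusted p = 0.002 from limma, and the call was kept in all 20 alternatives.

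*Acot2* encodes a mitochondrial thioesterase that splits long-chain acyl-CoA into free fatty acid and CoA. It had 10.30, 10.52, 10.36 and 10.53 on miR-709 A to D, and 9.84, 9.87 and 9.89 on Cel-239b B to D. The miR-709 arrays were more spread (SD 0.12, n = 4) than the Cel-239b arrays (SD 0.03, n = 3), but did not overlap with them. The log2 fold change was 0.56 (SE 0.07, 95% interval 0.40 to 0.72), or 1.48-fold, with adjusted p = 0.00277 from limma. Its close relative *Acot1*, a cytosolic thioesterase, had 5.50, 5.76, 5.29 and 5.29 on miR-709 A to D, and 5.02, 5.35 and 5.51 on Cel-239b B to D. These overlap, and the log2 fold change of *Acot1* was 0.17 (95% interval -0.15 to 0.48, adjusted p = 0.645 from limma). The transcripts of *Acot1* and *Acot2* are alike, so probes may read both, and the split between the genes is uncertain.

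*Pdk4* encodes a kinase that switches off pyruvate dehydrogenase and so spares glucose carbon while fat is burnt. Its log2 signal was 6.86, 7.02, 6.77 and 6.73 on miR-709 A to D, and 6.44, 6.38 and 6.27 on Cel-239b B to D. The groups did not overlap, and B was the highest miR-709 array. The log2 fold change was 0.48 (SE 0.08, 95% interval 0.30 to 0.66), or 1.40-fold, with adjusted p = 0.0115 from limma. Of the 4 calls this was the least stable: the adjusted p was 0.108 by the methods' t-test, 0.0587 by limma without Cel-239b replicate C and 0.0514 without Cel-239b replicate D.

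**Figure D2:**
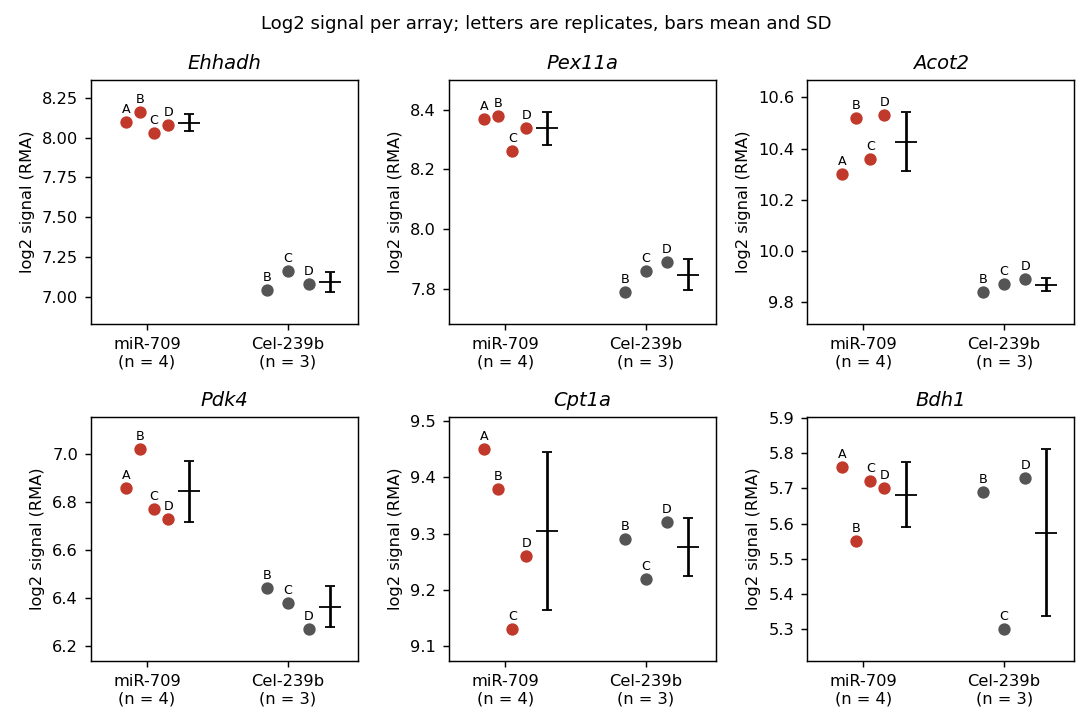
Signal (log2, RMA) of 6 genes on the 7 arrays, miR-709 (red, n = 4) left of Cel-239b (grey, n = 3), with replicate letters and the mean and SD as bars; axes differ between panels and do not start at 0. The groups do not overlap for *Ehhadh*, *Pex11a*, *Acot2* and *Pdk4*, whereas they overlap for *Cpt1a* and *Bdh1*.

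The promoters of the 4 genes that rose are shown here. The genes were picked by the same call, so that they rose together is no result, and a shared cause was not tested. Each line gives the 150 bases before the RefSeq start of the gene (GRCm38.p6), read 5′ to 3′ on the strand of the gene, with CCAAT and GGGCGG on either strand in capitals. The windows are chr16:21787835-21787984 (minus strand) for *Ehhadh*, chr7:79743132-79743281 (minus strand) for *Pex11a*, chr12:83987711-83987860 (plus strand) for *Acot2* and chr6:5496279-5496428 (minus strand) for *Pdk4*.
Ehhadh: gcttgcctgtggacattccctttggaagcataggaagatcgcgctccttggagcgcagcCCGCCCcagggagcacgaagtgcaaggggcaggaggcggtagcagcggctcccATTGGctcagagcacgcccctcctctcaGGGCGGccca
Pex11a: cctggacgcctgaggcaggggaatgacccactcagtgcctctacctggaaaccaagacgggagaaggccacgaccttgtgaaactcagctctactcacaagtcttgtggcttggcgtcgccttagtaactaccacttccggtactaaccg
Acot2: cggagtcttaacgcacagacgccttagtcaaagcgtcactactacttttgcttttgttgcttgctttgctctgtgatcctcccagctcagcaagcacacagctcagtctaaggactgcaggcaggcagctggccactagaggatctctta
Pdk4: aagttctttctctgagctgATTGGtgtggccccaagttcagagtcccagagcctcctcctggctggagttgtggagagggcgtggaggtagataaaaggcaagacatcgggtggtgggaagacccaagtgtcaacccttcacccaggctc

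Motifs were searched on both strands from 250 bases before to 50 bases after the start, in the 34 measured genes that have a RefSeq window and in all 32851 windows. Those windows were not limited to genes measured or expressed here, so their shares are not matched to the 34 genes. CCAAT lay in 3 of the 4 genes that rose (*Ehhadh* 38, *Pdk4* 131 and *Acot2* 244 bases before the start), in 16 of the 34 genes (47.1%) and in 37.4% of all windows. GGGCGG, the core of a GC box, lay in *Ehhadh* at 91 and 10 bases before the start and in *Pex11a* after the start, in 24 of the 34 genes (70.6%) and in 35.7% of all windows. TATAAA lay in *Fgf21* alone among the 34, and in 13.6% of all windows. PPAR alpha binds, with its partner RXR, a direct repeat of AGGTCA with 1 base between the copies. That repeat lay in 0 of the 34 genes and in 0.0396% of all windows, and with any base at the fourth place of each copy in 0 of the 34 and in 0.381%. These letters not lying in the window says nothing of other places in the gene.

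AGGTCA alone, the unit of that repeat, lay in 0 of the 4 genes that rose, in 4 of the 34 genes (11.8%) and in 16.3% of all windows. The 4 genes, all of mitochondrial oxidation and none of them called, are shown so that the motif can be set beside the promoters above. The 30 bases around it are at chr3:153944864-153944893 (minus strand) in *Acadm*, chr7:140116487-140116516 (minus strand) in *Echs1*, chr11:70015498-70015527 (minus strand) in *Acadvl* and chr19:3323195-3323224 (plus strand) in *Cpt1a*, from RefSeq on GRCm38.p6. Capitals mark AGGTCA or its complement.
Acadm: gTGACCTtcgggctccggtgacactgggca
Echs1: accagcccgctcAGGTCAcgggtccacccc
Acadvl: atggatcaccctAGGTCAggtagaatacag
Cpt1a: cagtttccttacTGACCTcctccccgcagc

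In the mitochondrial steps, limma called 0 of 21 measured genes, from the carnitine shuttle to the electron transfer flavoprotein. At an unadjusted p under 0.05, 4 were higher and 0 lower, beside 9.15% and 5.83% of all genes. All miR-709 arrays lay above all Cel-239b arrays in 4 of the 21 (19.0%, beside 7.44% of all genes). They lay below them in 0 of the 21 (4.91% of all genes). The methods' t-test called 0 of the 21 genes, and the lowest adjusted p from limma was 0.249. Their median log2 fold change was 0.04 (range -0.11 to 0.24), and 16 of the 21 were above 0. This median was 0.01 after a further quantile normalization and 0.0008 after cyclic loess, shifts smaller than its spread between replicate arrays. With each array left out in turn it ran from 0.01 (without miR-709 replicate A) to 0.08 (without Cel-239b replicate D).

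Activation and the carnitine shuttle bring fatty acids to the matrix. The measured acyl-CoA synthetases, *Acsl4* and *Acsl5*, had log2 fold changes of -0.04 and -0.03. *Cpt1a*, the liver carnitine palmitoyltransferase that malonyl-CoA inhibits, had 9.45, 9.38, 9.13 and 9.26 on miR-709 A to D, and 9.29, 9.22 and 9.32 on Cel-239b B to D. The Cel-239b arrays lay inside the range of the miR-709 arrays, and the log2 fold change was 0.03 (95% interval -0.15 to 0.21, adjusted p = 0.912 from limma). *Cpt2*, the transferase of the inner membrane, had 8.66, 8.63, 8.74 and 8.62 on miR-709 A to D, and 8.62, 8.59 and 8.66 on Cel-239b B to D, with a log2 fold change of 0.04 (95% interval -0.09 to 0.17, adjusted p = 0.811). *Slc25a20*, the translocase between them, had 9.07, 9.17, 9.07 and 9.11 on miR-709 A to D, and 8.97, 8.85 and 9.01 on Cel-239b B to D. These arrays did not overlap, but the log2 fold change of 0.16 (95% interval 0.02 to 0.30) had an adjusted p of 0.249 from limma. *Crat*, the carnitine acetyltransferase, had a log2 fold change of 0.11.

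The acyl-CoA dehydrogenases start each round, and each takes a range of chain lengths. The very long-chain enzyme *Acadvl* had a log2 fold change of 0.12 without overlap of the arrays (adjusted p = 0.404 from limma). The long-chain *Acadl* had -0.07, the medium-chain *Acadm* 0.01 (95% interval -0.13 to 0.15), the short-chain *Acads* 0.00 (95% interval -0.24 to 0.24) and the family member *Acad10* -0.11. The widest interval of these, that of *Acads*, goes with Cel-239b signals of 9.05, 9.47 and 9.52. *Acad11*, a family member, had 8.65, 8.73, 8.42 and 8.35 on miR-709 A to D, and 8.22, 8.34 and 8.32 on Cel-239b B to D. Its arrays did not overlap, although C and D came close to the Cel-239b arrays, and its log2 fold change was 0.24 (SE 0.10, 95% interval 0.03 to 0.46, adjusted p = 0.263 from limma).

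The hydratase *Echs1* (log2 fold change 0.00), the dehydrogenase *Hadh* (0.08), the trifunctional protein subunits *Hadha* (-0.02) and *Hadhb* (0.08) and the thiolase *Acaa2* (0.05) complete the round, and none had an unadjusted p under 0.05. *Hadhb* had a further probe set, which gave 0.07. Isomerases and a reductase prepare unsaturated fatty acids for the same round. *Eci1*, the mitochondrial enoyl-CoA isomerase, had 8.91, 9.01, 8.97 and 8.94 on miR-709 A to D, and 8.80, 8.79 and 8.86 on Cel-239b B to D. The arrays were apart by little, and the log2 fold change of 0.14 (95% interval 0.02 to 0.26) had an adjusted p of 0.26 from limma. *Eci2*, an isomerase of mitochondria and peroxisomes, had 0.19 (95% interval 0.02 to 0.36, adjusted p = 0.258), and *Decr1*, the mitochondrial dienoyl-CoA reductase, 0.02. The electron transfer flavoprotein subunits *Etfa* and *Etfb* and its oxidoreductase *Etfdh*, which hand the electrons to the respiratory chain, had -0.09, 0.07 and -0.01.

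Of the 8 measured peroxisomal genes, 2 were higher (25.0%, beside 1.81% of all genes) and 6 did not pass the test. The median log2 fold change of the 8 was 0.16 (range -0.24 to 1.00), beside 0.01 over all genes. The thiolase *Acaa1b* had 8.16, 8.04, 8.24 and 7.91 on miR-709 A to D, and 7.61, 7.64 and 8.04 on Cel-239b B to D. Cel-239b D lay among the miR-709 arrays, and the log2 fold change was 0.32 (SE 0.12, 95% interval 0.06 to 0.59, adjusted p = 0.22 from limma). The other thiolase, *Acaa1a*, had 7.04, 6.91, 6.79 and 7.13 on miR-709 A to D, and 6.49, 6.91 and 6.91 on Cel-239b B to D. Only Cel-239b B lay below all miR-709 arrays, and the log2 fold change was 0.20 (95% interval -0.07 to 0.46, adjusted p = 0.493). Without Cel-239b replicate B it was 0.06. The *Acaa1a* and *Acaa1b* transcripts are near copies, so their split is uncertain.

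*Decr2*, the peroxisomal dienoyl-CoA reductase, was the gene of the 39 with the lowest fold change. It had 9.29, 9.46, 9.30 and 9.43 on miR-709 A to D, and 9.35, 9.73 and 9.74 on Cel-239b B to D. Cel-239b B lay within the miR-709 arrays and the other Cel-239b arrays above them, and the log2 fold change was -0.24 (SE 0.10, 95% interval -0.46 to -0.01, adjusted p = 0.309 from limma). *Hsd17b4*, the D-bifunctional protein that works beside *Ehhadh*, had 9.92, 10.04, 9.92 and 9.94 on miR-709 A to D, and 9.95, 9.68 and 9.88 on Cel-239b B to D. These overlap, unlike those of *Ehhadh*, and the log2 fold change was 0.12 (adjusted p = 0.519). *Acox3*, an oxidase of branched-chain substrates, had -0.03 and *Crot*, which makes carnitine esters of the shortened chains, 0.04.

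**Figure D3:**
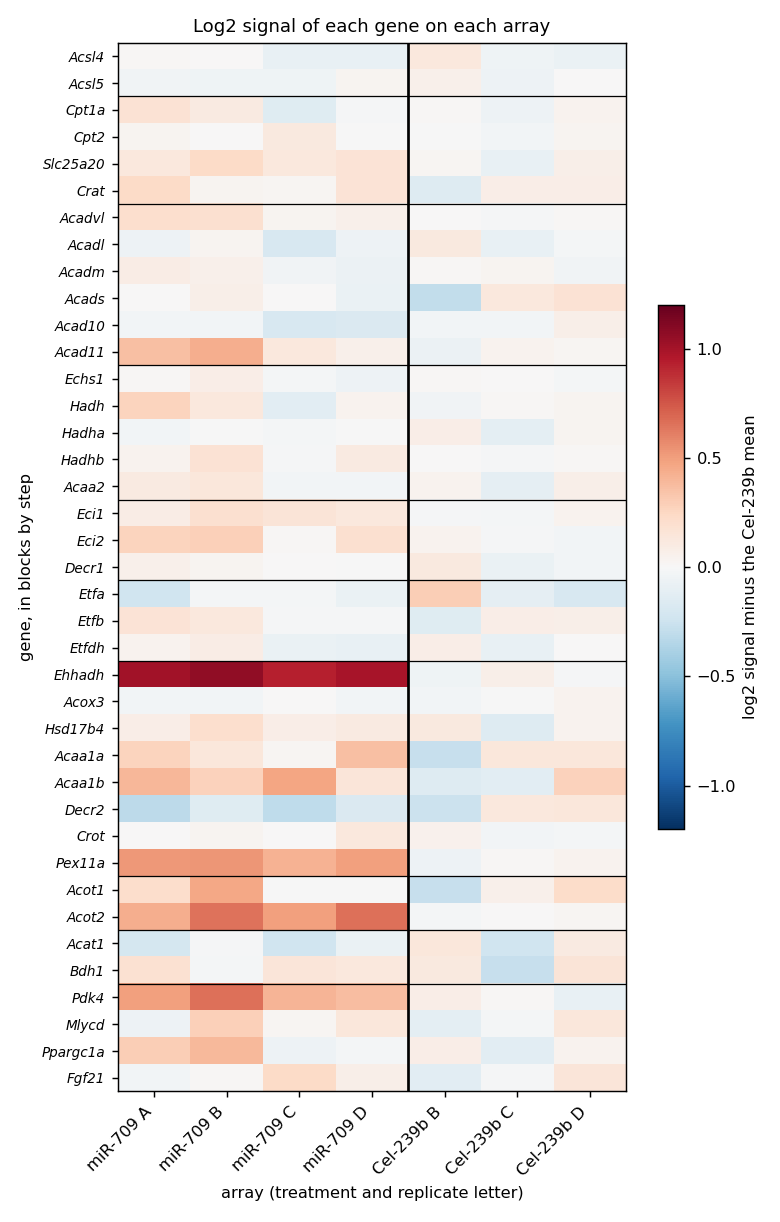
Log2 signal of each of the 39 genes (down the page, in blocks by step) on each array (across, miR-709 left of Cel-239b), as the difference from the mean of the Cel-239b arrays on a colour scale from blue (lower) to red (higher). *Ehhadh*, *Pex11a*, *Acot2* and *Pdk4* are red on all 4 miR-709 arrays, whereas most of the 21 mitochondrial genes stay pale on all 7 arrays.

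Of the ketogenic genes, *Acat1* and *Bdh1* were measured, and limma and the methods' t-test called 0, with 0 at an unadjusted p under 0.05. *Acat1*, the mitochondrial thiolase that joins or splits acetoacetyl-CoA, had 7.72, 7.92, 7.69 and 7.85 on miR-709 A to D, and 8.07, 7.69 and 8.04 on Cel-239b B to D. *Bdh1*, which makes 3-hydroxybutyrate from acetoacetate, had 5.76, 5.55, 5.72 and 5.70 on miR-709 A to D, and 5.69, 5.30 and 5.73 on Cel-239b B to D. In both genes Cel-239b C was low and the groups overlapped. The log2 fold change was -0.14 for *Acat1* (95% interval -0.37 to 0.09, adjusted p = 0.583 from limma) and 0.11 for *Bdh1* (95% interval -0.13 to 0.35, adjusted p = 0.691). Without Cel-239b replicate C that of *Bdh1* was -0.03 and that of *Acat1* -0.26. Without Cel-239b replicate B that of *Acat1* was -0.07, and without Cel-239b replicate D it was -0.08.

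Among the genes of control, only *Pdk4* was called. *Ppargc1a*, a coactivator of oxidative genes, had 5.74, 5.84, 5.39 and 5.42 on miR-709 A to D, and 5.53, 5.32 and 5.49 on Cel-239b B to D, with a log2 fold change of 0.15 (95% interval -0.11 to 0.41, adjusted p = 0.608 from limma). Replicates A and B lay above all Cel-239b arrays, and C and D among them. A further, dimmer probe set of *Ppargc1a* averaged 3.22 with miR-709 and 3.13 with Cel-239b, with a log2 fold change of 0.09. *Fgf21*, a hormone that the fasted liver releases, had 6.16, 6.21, 6.43 and 6.27 on miR-709 A to D, and 6.07, 6.18 and 6.34 on Cel-239b B to D, which overlap (log2 fold change 0.07, 95% interval -0.12 to 0.26, adjusted p = 0.766). *Mlycd*, which breaks down malonyl-CoA, had 0.10.

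Other genes of the same pathways were counted from lists of 126 genes, of which 115 were measured: 2 were higher, 3 were lower and 110 did not pass limma's test. The 2 higher genes are 1.7% of these, near the 1.81% of all genes. Their median log2 fold change was 0.07, as in the 39 genes. Of 21 other peroxisomal fatty acid genes, *Acox2*, which oxidises branched fatty acids and intermediates of bile acids, was higher, at 9.83, 9.69, 9.70 and 9.68 on miR-709 A to D, and 8.89, 9.12 and 9.06 on Cel-239b B to D (log2 fold change 0.70, SE 0.07, adjusted p = 8.6e-04). The median of these 21 genes was 0.09. At an unadjusted p under 0.05, 7 were higher and 0 lower, beside 9.15% and 5.83% of all genes. Of 12 peroxisome biogenesis genes 0 were called by limma (1 higher and 0 lower unadjusted), with a median of 0.03.

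Of 25 other mitochondrial genes of fatty acid and acyl-CoA metabolism, 1 was lower and none was higher, with a median of 0.05. This was *Mmut*, methylmalonyl-CoA mutase, which feeds the propionyl-CoA of odd-chain fatty acids and some amino acids into the citric acid cycle. It had 7.29, 7.30, 7.38 and 7.30 on miR-709 A to D, and 8.16, 8.03 and 8.27 on Cel-239b B to D. The miR-709 arrays were tightly together and far below the Cel-239b arrays, with a log2 fold change of -0.84 (SE 0.07, adjusted p = 2.8e-04 from limma).

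Of 7 other ketone body genes, 1 was lower and none was higher, with a median of -0.07. This was *Oxct1*, the transferase with which tissues other than liver use ketone bodies. It had 7.36, 7.55, 7.18 and 7.03 on miR-709 A to D, and 7.95, 7.66 and 7.85 on Cel-239b B to D. The arrays did not overlap, and the log2 fold change was -0.54 (SE 0.12, adjusted p = 0.0464 from limma). The adjusted p was 0.264 by the methods' t-test, and *Oxct1* was called in 10 of 20 alternatives.

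*Ppara*, the gene of PPAR alpha itself, averaged 7.01 ± 0.04 with miR-709 (SD, n = 4) and 6.99 ± 0.03 with Cel-239b (SD, n = 3), a log2 fold change of 0.02 (95% interval -0.10 to 0.14, adjusted p = 0.92 from limma). Of the 21 measured genes of the list of PPAR alpha, its partners and other targets, *Cd36*, a fatty acid uptake receptor, was higher and *Slc27a1*, a fatty acid transport protein, was lower, with a median of 0.11. *Cd36* had 8.84, 9.02, 8.60 and 8.89 on miR-709 A to D, and 8.00, 7.87 and 8.10 on Cel-239b B to D (log2 fold change 0.85, SE 0.10, 95% interval 0.62 to 1.07, adjusted p = 0.00195). *Slc27a1* had 5.53, 5.53, 5.49 and 5.68 on miR-709 A to D, and 6.31, 6.52 and 6.62 on Cel-239b B to D (log2 fold change -0.93, SE 0.08, 95% interval -1.11 to -0.74, adjusted p = 4.2e-04). Neither gene's arrays overlapped. *Cd36* was not called by the methods' t-test (adjusted p = 0.0607). Of 11 genes of omega oxidation, which makes dicarboxylic acids for the peroxisome, 0 were called by limma, 3 were higher unadjusted, and the median was 0.16. Of 18 genes of pyruvate dehydrogenase and malonyl-CoA control 0 were called by limma, 3 were higher unadjusted, and the median was 0.07. Over all genes, 9.15% were higher at an unadjusted p under 0.05. *Acacb*, which makes the malonyl-CoA that inhibits *Cpt1a*, had a log2 fold change of -0.12 (95% interval -0.30 to 0.06, adjusted p = 0.542).

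**Figure D4:**
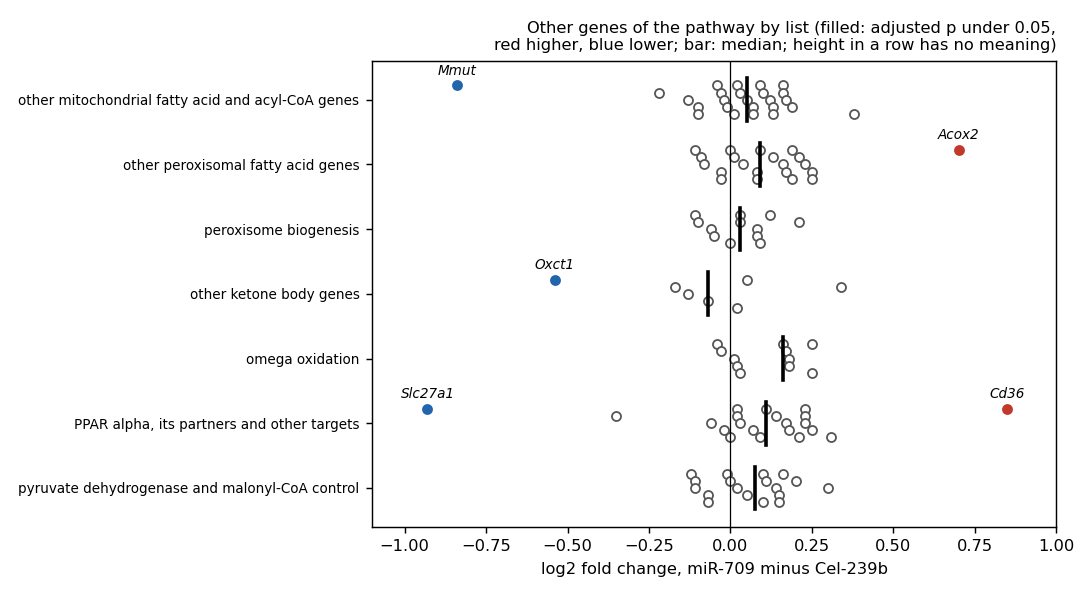
Log2 fold change, miR-709 minus Cel-239b, of the 115 other pathway genes by list, with the median of each list as a bar; filled points have an adjusted p from limma under 0.05 (red higher, blue lower), and the height of a point within its row has no meaning. *Acox2* and *Cd36* are filled on the higher side and *Mmut*, *Oxct1* and *Slc27a1* on the lower side.

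Other genes moved on the same arrays. Hepatocyte markers were bright, with a mean log2 signal over 9 in 11 of 14 measured, and 3 of the 14 were higher with miR-709: *Tat* (log2 fold change 0.61), *Cps1* (0.68) and *Hnf4a* (0.57). They are 21.4% of the 14, beside 1.81% of all genes, and the methods' t-test called *Hnf4a* but not *Tat* (adjusted p = 0.105) or *Cps1* (adjusted p = 0.157). Of genes with a mean signal of at least 6, 555 of 8638 were higher. The mean of the 14 was 10.79 to 10.90 on miR-709 arrays and 10.62 to 10.66 on Cel-239b arrays. The 3 called genes weigh on this mean: the median log2 fold change of the 14 was 0.08 (range -0.18 to 0.68), and 12 were above 0. Of 9 cholangiocyte markers *Krt19* was lower (-1.23, adjusted p = 0.0377 from limma and 0.273 by the methods' t-test), at 8.97, 8.73, 7.91 and 7.79 on miR-709 A to D, and 9.71, 9.50 and 9.53 on Cel-239b B to D. The cholangiocyte list had means of 5.73 to 5.87 on miR-709 arrays and 6.00 to 6.03 on Cel-239b arrays. *Krt19* weighs on these means: the median log2 fold change of the list was -0.08, and 2 of the 9 were above 0. Of 15 stellate cell and myofibroblast markers *Acta2* (-1.34) and *Vim* (-0.40, adjusted p = 0.0787 by the methods' t-test) were lower, with list means of 5.56 to 5.61 on miR-709 arrays and 5.69 to 5.75 on Cel-239b arrays. *Acta2* and *Vim* weigh on these means: the median log2 fold change of the 15 was -0.02, and 5 were above 0. Limma called 1.47% of all genes lower, beside 1 of the 9 cholangiocyte markers and 2 of these 15. Limma called none of 12 endothelial markers (means 4.89 to 4.93 on miR-709 arrays and 4.86 to 4.98 on Cel-239b arrays) and none of 15 Kupffer cell and leukocyte markers (4.37 to 4.46 on miR-709 arrays and 4.39 to 4.42 on Cel-239b arrays). At an unadjusted p under 0.05, 1 endothelial marker and 0 Kupffer cell and leukocyte markers were higher and 0 were lower. Over all genes, 9.15% were higher and 5.83% lower in this way.

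Interferon response genes stood apart on miR-709 replicates C and D: 19 genes, as the average distance from their Cel-239b level, had -0.11, -0.04, 0.85 and 0.84 on miR-709 A to D, and -0.16, -0.04 and 0.20 on Cel-239b B to D. In the same measure the 21 mitochondrial genes had 0.09, 0.11, -0.01 and 0.01 on miR-709 A to D, and 0.00, -0.02 and 0.02 on Cel-239b B to D. The 8 peroxisomal genes had 0.24, 0.26, 0.20 and 0.25 on miR-709 A to D, and -0.08, 0.00 and 0.08 on Cel-239b B to D. This level comes from *Ehhadh* and *Pex11a*: the other 6 peroxisomal genes had 0.07, 0.08, 0.05 and 0.09 on miR-709 A to D, and -0.09, -0.01 and 0.10 on Cel-239b B to D, so that the groups overlapped and Cel-239b D was the highest array. The mitochondrial mean lay within the Cel-239b range on C and D. Without miR-709 C and D, a setting chosen after seeing the data, limma called 2 of the 39 genes higher (*Ehhadh* and *Pex11a*) and 0 lower, with a log2 fold change of 0.54 for *Acot2* (adjusted p = 0.0606) and 0.58 for *Pdk4* (adjusted p = 0.0558). With only 2 miR-709 arrays in that setting, 76 of all genes were higher. The part of the cell type markers and of the interferon genes in the values above was not tested.

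**Figure D5:**
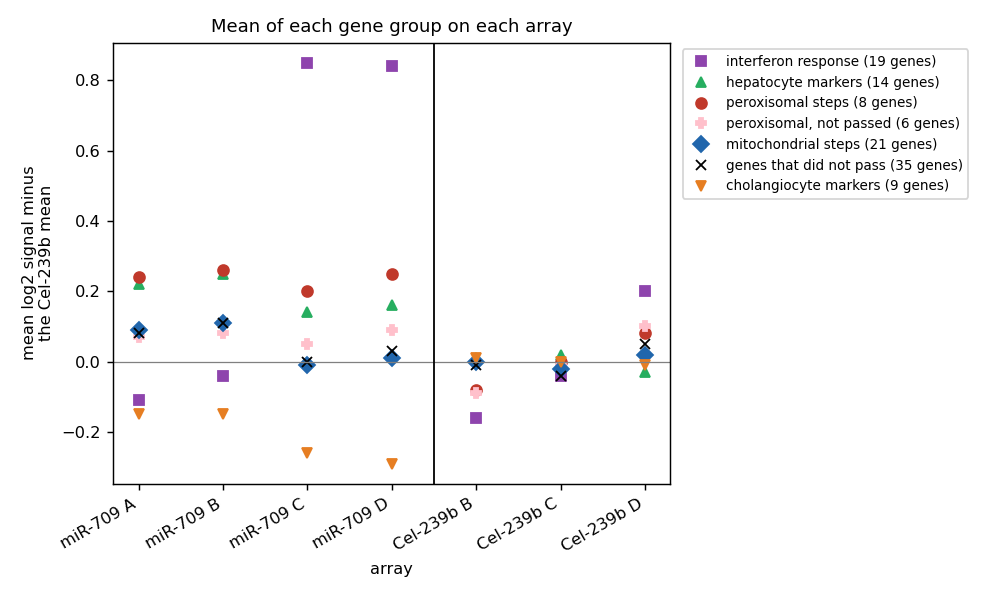
Mean log2 signal of 7 gene groups on each array (miR-709 left of Cel-239b), minus the mean of the Cel-239b arrays. The interferon response genes are at 0.85 and 0.84 on miR-709 C and D, and the 8 peroxisomal genes, which include *Ehhadh* and *Pex11a*, lie between 0.20 and 0.26 on miR-709 arrays, whereas the 6 peroxisomal genes that did not pass lie between 0.05 and 0.09 there and at 0.10 on Cel-239b D.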

How the data were processed

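The authors deposited log2 signals, 1 per probe set and array, for 4 miR-709 and 3 Cel-239b arrays. Per the labels these come from Partek and RMA, which subtracts background, gives the arrays a common distribution and combines the probes of a set. Their versions are not given in the sources used here. Raw scans were not analysed here, so these steps could not be varied. No arrays held identical values. Of 28853 probe sets, 21789 carried 1 gene symbol, 1621 several and 5443 none. The brightest probe set stood for each of 999 genes that had more than 1, which left 19938 genes.

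Groups were compared with limma 3.58.1 in R 4.3.3 by a 2-sided moderated test, and p-values were adjusted over all genes by Benjamini-Hochberg. The 1-way ANOVA of the methods is called the methods' t-test. The script was tested on simulated data with the gene means and residual SDs of these arrays and 200 genes changed. It recovered 38.8% of log2 changes of 0.35, 62.7% of those of 0.5 and 97.0% of those of 1, with 8 false calls among 140. Thus most changes of 0.35 and part of those of 0.5 were missed, so a gene that was not called may still have changed. Named with array values and test were the called genes, the 4 uncalled genes with the largest change and 6 genes chosen by role (*Cpt1a*, *Cpt2*, *Acat1*, *Bdh1*, *Ppargc1a* and *Fgf21*), then the called genes of the other lists, and *Ppara* and *Acacb* by means or fold change. *Acot1*, *Slc25a20*, *Eci1* and *Hsd17b4* were given in more detail after their values were seen. The 42 genes and the other lists were chosen with earlier results of these data known, so no list was tested. Alternatives were another variance model, test, choice of probe set, filter, scaling, weighting or replicate block, and each array left out. The number of arrays limits the precision.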

Additional observations from a re-analysis of the deposited data

Results flagged for a closer look

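In 5 of 44 genes examined, 1 miR-709 array stood apart from the other 3 by more than Dixon's 95% limit for 4 samples, where chance alone gives about 1 in 20. All 5 ranges were small. They were *Acsl5* on D (10.99, range 0.09), *Acox3* on C (7.11, range 0.04), *Hsd17b4* on B (10.04, range 0.12), *Mmut* on C (7.38, range 0.09) and *Acox2* on A (9.83, range 0.15). For *Mmut* and *Acox2* the range was smaller than the distance to the nearest Cel-239b array.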

How the results depend on the processing

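*Ehhadh* and *Pex11a* were called in all 20 alternatives (adjusted p up to 0.0101 and 0.0329), *Acot2* in 19 and *Pdk4* in 16. The count of the 39 genes called higher was 3 to 4 with each array left out in turn, 3 by the methods' t-test, and 2 without miR-709 C and D, where the median log2 fold change was 0.11 for the 39 genes and 0.11 for the mitochondrial genes. None was lower in any alternative. Over all genes, 361 were higher and 293 lower, against 113 and 113 by the methods' t-test, 555 higher when genes under a mean signal of 6 were left out, 180 to 294 higher and 181 to 244 lower with each array left out, and 76 and 92 without miR-709 C and D. Cyclic loess gave 304 higher and 333 lower, and quantile normalization 335 and 334. With the letter as a replicate block, 180 genes and 4 of the 39 were higher. Arrays of the same letter deviated together by correlations of only 0.02, 0.02 and 0.05, so the letters were not taken as pairs. Values near 0 changed sign: *Cpt1a* was -0.004 after quantile normalization, -0.01 after cyclic loess, -0.02 with the replicate block and -0.02 without miR-709 A, *Bdh1* was -0.03 without Cel-239b C, and *Fgf21* was -0.01 without miR-709 C and D. With each array left out in turn, *Cpt1a* ran from -0.02 to 0.09 and *Bdh1* from -0.03 to 0.19. The cause was not tested. The median SE of a single gene, 0.08, was above the mitochondrial median of 0.04, so shifts of that size could not be called gene by gene.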
